A study of Arabidopsis thaliana with 12 samples.

Results

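FIDDLEHEAD (FDH) encodes a putative 3-ketoacyl-CoA synthase of the Arabidopsis epidermis, and rosette leaves of the fdh mutant were compared here with those of wild type. The comparison takes the 3 arrays titled as fdh leaves and the 3 titled as WT leaves, out of 12 arrays in all, and covers every probe set except the 64 controls of the array maker, 22746 of 22810. The fdh plants carried the allele fdh-3940, an insertion of 2 bp in exon 1 of FDH, and the WT plants were Columbia-0. The remaining arrays hold the cuticle mutants bdg (allele bdg-2) and lcr (allele lcr-3P77), with 3 each. All plants had grown on soil for 5.5 weeks in days of 8 h at 20°C and nights of 16 h at 18°C, and had no treatment. Each sample pooled leaves of 2 mm to 1 cm from 15 plants, so an array is an average over plants and a single line stands for the mutant.

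The cuticle is a film of cutin polyester and wax that the epidermal cells of a leaf make and secrete. Wax is built from very long acyl chains, to which 3-ketoacyl-CoA synthases add carbon in pairs, and its alkanes and alcohols leave the cell through ABC transporters and are thought to be carried further by lipid transfer proteins. Arabidopsis mutants with a defective cuticle lose water and solutes through the leaf surface and can fuse organs that touch, which is how fiddlehead plants were first recognized.

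The values are log2 expression values of probe sets, so a difference of 1 is a 2-fold change. Array medians lay between 4.56 and 4.70. Those of the fdh arrays (4.69, 4.65 and 4.70) were all above those of the WT arrays (4.59, 4.56 and 4.57). A value under 4.56, the lowest of these medians, has no detection call behind it here, and how far background sets the size of a rise from there was not tested. RCA, the activase of Rubisco and the sole named marker of leaf mesophyll, averaged 14.3 ± 0.204 in fdh and 14.2 ± 0.256 in WT (SD, n = 3 each). The guard cell genes FMA (FAMA) and At1g22690 (GC1) averaged 5.80 and 9.11 in fdh, against 5.67 and 8.95 in WT, and the meristem marker CLV3 and the root marker PYK10 stood at 2.62 or lower on all 6 arrays. None of these 5 markers passed the test. No probe set of the epidermis, vasculature or flower markers is named here, nor is one of FIDDLEHEAD, so the mutated gene could not check the labels. The symbol FDH also belongs to formate dehydrogenase (At5g14780), a separate gene, which averaged 10.7 ± 0.0795 in fdh and 9.26 ± 0.310 in WT (SD, n = 3 each, limma adjusted p = 0.0367). This call ended with any fdh or WT array left out (0.0575 to 0.149). Fewer cells of a type and less RNA per cell cannot be told apart in such samples.

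The limma test, fitted over all 4 genotypes, placed 349 probe sets higher and 144 lower in fdh at an adjusted p under 0.05, which is 1.53% and 0.633% of those tested. Rises were the larger changes. The median called rise was 1.86 on the log2 scale, or 3.63-fold, and the median called fall was -0.94, or 1.92-fold. Of the rises 158 reached 4-fold and 29 reached 16-fold, against 9 and 1 of the falls, and the probe set that fell over 16-fold has no gene name here. The median level of the probe sets that rose was 7.52 in fdh and 5.03 in WT, and 147 of the 349 had a WT mean under the lowest array median. Those that fell had a median level of 5.94 in fdh and 7.16 in WT, and 15 of the 144 had a WT mean under the lowest array median. The plot of change by WT level shows called rises across the range, many of the steepest of them left of the lowest array median, and the highest points, which are lipid transfer protein genes, right of it.

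**Figure D1:**
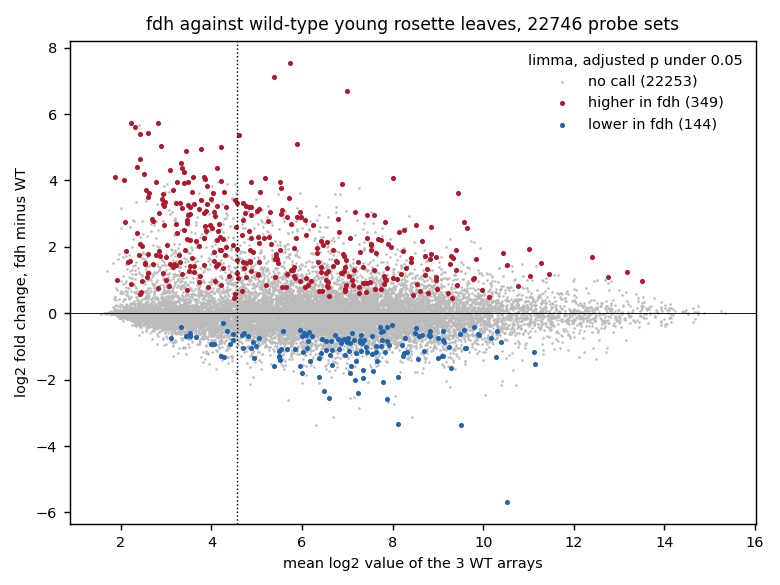
Log2 fold change of each of 22746 probe sets (fdh minus WT, vertical axis) by its mean log2 value on the 3 WT arrays (horizontal axis). Red points are the 349 called higher and blue points the 144 called lower by limma, grey points were not called, and the dotted line is the lowest array median, 4.56.

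Rank Product, the study's test, run on the 9 ratios of fdh to WT arrays, placed 383 probe sets higher and 46 lower (1.68% and 0.202% of those tested). It shared 164 rises and 16 falls with limma. On 3 against 3 arrays all fdh values lay above all WT values for 1897 probe sets (8.34%) and below them for 1944 (8.55%). All 349 rises and all 144 falls called by limma were among these, so lack of overlap adds nothing to a call. The number of calls moved with the arrays and the model, as the plot of calls by setting shows. With the replicate number as a block limma called 583 higher and 264 lower, and with only the fdh and WT arrays in the model 42 and 11. Without fdh replicate 1 the counts were 104 and 17, without fdh replicate 2 they were 124 and 20, and without fdh replicate 3 they were 599 and 255. They were 145 and 47 without WT replicate 1, 183 and 74 without WT replicate 2, and 318 and 208 without WT replicate 3. In every one of these 6 fits 91 of the 349 rises and 11 of the 144 falls kept the call. The 3' to 5' difference of the actin controls, a sign of RNA quality, was 1.02, 0.85 and 0.45 on the fdh arrays, against 1.01, 2.07 and 0.33 on the WT arrays, so the groups overlapped but WT replicate 2 stood highest. With this difference as a covariate 641 were higher and 346 lower.

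**Figure D2:**
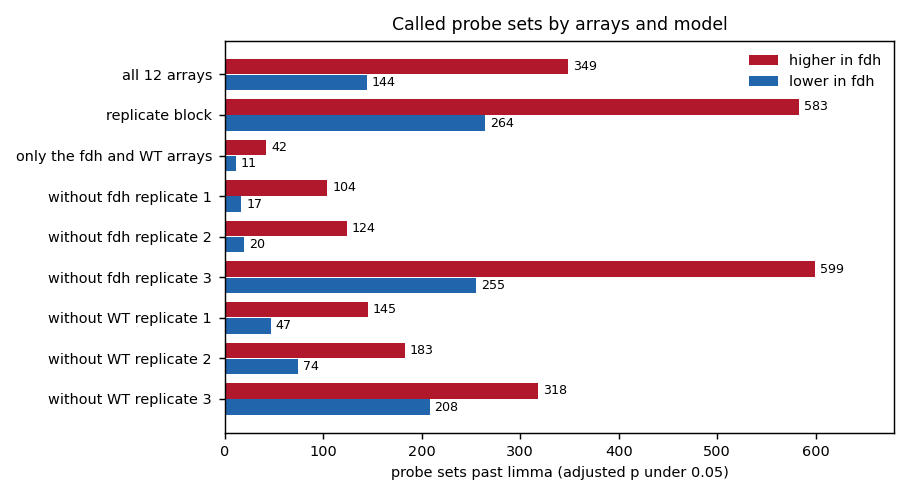
Number of probe sets past limma (horizontal axis, adjusted p under 0.05) for the fit over all 12 arrays, with the replicate block, with only the fdh and WT arrays, and with each fdh or WT array left out. Red bars are probe sets higher and blue bars probe sets lower in fdh; the longest, 599 and 264, belong to the fits without fdh replicate 3 and with the block.

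Lipid transfer protein genes held the largest rises. These small secreted proteins bind lipids in a cavity and are abundant at the surface of leaves. LTP3 (At5g59320) stood at 13.63, 13.05 and 13.15 on the fdh arrays, against 2.18, 8.42 and 6.60 on the WT arrays. LTP4 (At5g59310) read 12.32, 12.46 and 12.71 in fdh, against 2.49, 7.73 and 5.91 in WT. LTP2 (At2g38530) read 13.82, 13.66 and 13.54 in fdh, against 4.51, 9.27 and 7.20 in WT. All 3 genes were alike on the fdh arrays and spread widely in WT, where replicate 1 was the lowest and replicate 2 the highest for each. Their differences were 7.55 (standard error 1.28), 7.12 (1.05) and 6.68 (0.926), at limma adjusted p of 0.0231, 0.0147 and 0.0111.

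A steadier rise was that of At5g01870, with 8.43, 7.55 and 7.77 in fdh and 2.09, 2.89 and 1.96 in WT (difference 5.60, limma adjusted p = 3.83e-04). At3g22600 had 7.66, 7.96 and 8.23 in fdh and 2.05, 2.55 and 2.07 in WT. Both lay under the array medians in WT. At1g48750 was measured in both groups, at 8.78, 8.68 and 8.60 in fdh and 6.57, 6.66 and 6.42 in WT, a rise of 2.13 (limma adjusted p = 0.00442). AZI1, which takes part in the priming of systemic defence, rose by 4.10 and At1g62790 by 2.06 (limma adjusted p = 0.0155 and 0.0354). Of 24 genes in the list, 9 are named by the platform annotation, and 3 of these rose, 0 fell and 6 did not pass (1.23% and 0.607% of all platform-named genes rose and fell), with a median of 1.80 against -0.0052 over all probe sets. A further 6 are named through the study's own table of higher genes, of which 5 rose, and that source favours rises. The calls of LTP3, LTP4, LTP2, AZI1 and At1g62790 ended without fdh replicate 1 (adjusted p between 0.0534 and 0.124), all of these but LTP2 ended without fdh replicate 2 (0.059 to 0.122), AZI1 and At1g62790 without WT replicate 1 (0.0561 and 0.108), and At1g62790 also without WT replicate 2 (0.0999) and fdh replicate 3 (0.0604).

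**Figure D3:**
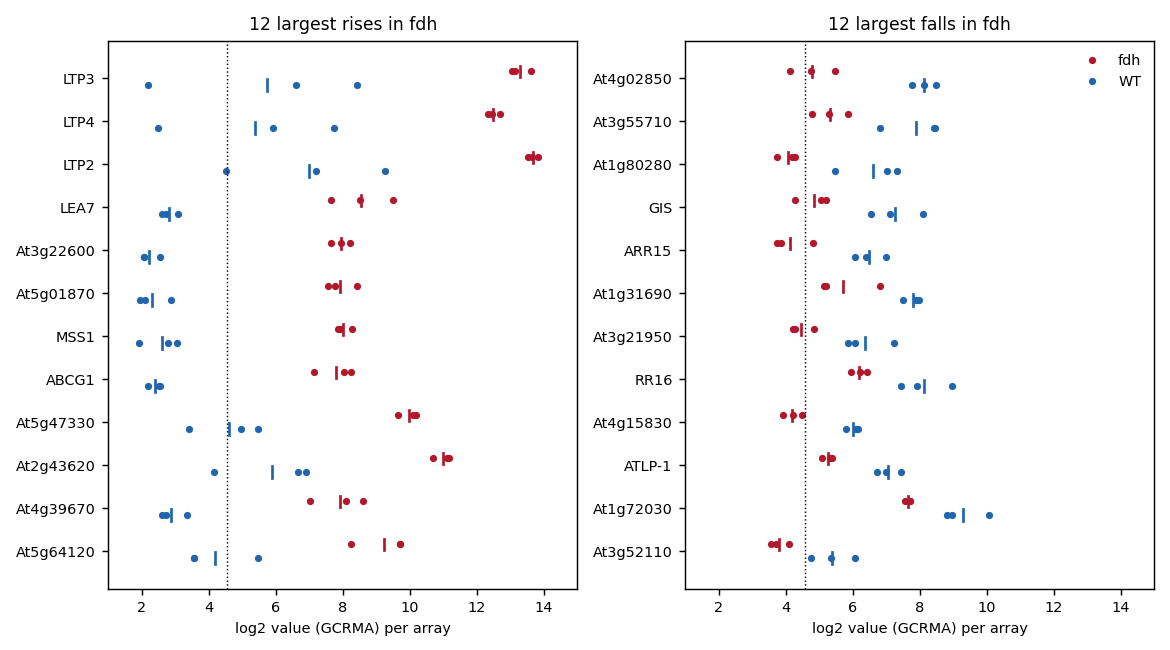
Log2 values per array (horizontal axis) of the 12 genes with the largest called rises (left panel) and the 12 with the largest called falls (right panel), fdh in red above WT in blue, with vertical ticks at the means of 3 arrays and a dotted line at 4.56. No fdh point overlaps the WT points of its gene, which was a condition of the choice. LTP3, LTP4 and LTP2 show the widest WT spread, and WT values of LEA7 to ABCG1 lie left of the dotted line. MSS1 is STP13.

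Named wax genes of several steps rose. KCS2 (At1g04220), a 3-ketoacyl-CoA synthase also known as DAISY, had 8.28, 7.83 and 7.63 in fdh and 3.82, 4.59 and 4.40 in WT. Its rise of 3.64 (standard error 0.285) passed limma at an adjusted p of 0.00105. CER3, needed with CER1 to make alkanes, had 9.80, 9.75 and 10.31 in fdh and 7.68, 7.42 and 8.15 in WT, a rise of 2.20 (limma adjusted p = 0.00313). CER4, the reductase that forms primary alcohols, rose by 3.16, and CER1 by 1.80 (limma adjusted p = 0.0095 and 0.0178). The paper reports some inconsistency between the probe sets of CER1, and the value here is of a single one. MYB96, a transcription factor that activates wax genes in drought, had 7.66, 7.71 and 6.83 in fdh against 5.24, 5.35 and 5.33 in WT. None of these 5 genes overlapped between the groups, as for all 349 called rises, and all 5 are named through the study's table of higher genes. Among the 4 of 27 listed wax genes that the platform annotation names, 0 rose and 0 fell by limma (1 at an unadjusted p under 0.05) and Rank Product called 1 higher, with a median of 0.015. The calls of MYB96 and CER1 ended without fdh replicate 1 (adjusted p = 0.0745 and 0.0607) and fdh replicate 2 (0.0684 for each), that of MYB96 without WT replicate 1 (0.0578) and that of CER1 without WT replicate 2 (0.0594).

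ABCG1 (At2g39350), an ABC transporter of the G family, which includes exporters of lipids, had 8.24, 8.05 and 7.14 in fdh and 2.18, 2.53 and 2.52 in WT. Its rise of 5.40 (standard error 0.316) had an adjusted p of 3.54e-04 in limma. In the cutin and suberin list the GDSL lipase gene At2g04570 had 10.84, 10.82 and 10.80 in fdh against 8.62, 8.23 and 9.12 in WT, and At5g51950, a relative of HOTHEAD, had 5.07, 5.24 and 5.32 against 3.93, 3.43 and 3.34. They rose by 2.16 and 1.65 (limma adjusted p = 0.0095 and 0.0069), and both calls held with each array left out. The regulator SHN3 (0.92) and FAR1 (2.07), which makes alcohols of suberin, did not pass (limma adjusted p = 0.527 and 0.194). That makes 2 rises and 0 falls among the 3 of 30 listed genes with a platform name (1.23% and 0.607% of all platform-named genes).

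**Figure D4:**
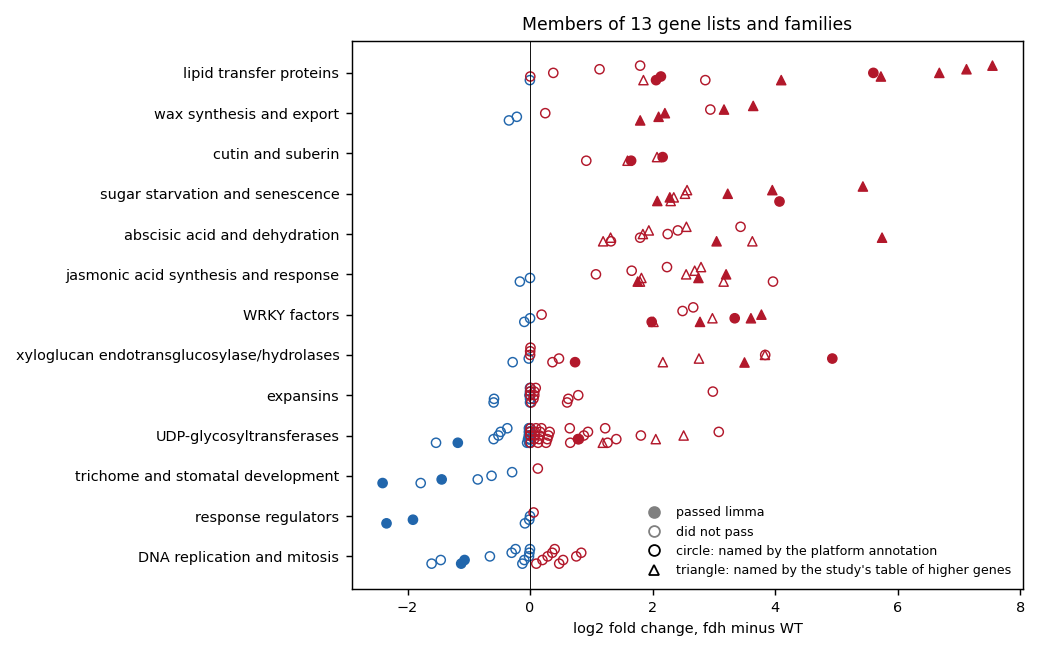
Log2 fold change (fdh minus WT, horizontal axis) of each named member of 13 gene lists and families; red is above 0 and blue below, filled symbols passed limma, circles are named by the platform annotation and triangles through the study's table of higher genes, which favours rises. Filled points of the trichome, response regulator and DNA replication groups lie at the left, those of the lipid transfer, wax and sugar groups at the right.

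Cell wall genes changed in both directions. XTH19, an enzyme that cuts and rejoins xyloglucan, had 8.65, 9.25 and 8.18 in fdh and 3.36, 4.68 and 3.25 in WT. It rose by 4.93 (limma adjusted p = 0.00711), XTH15 by 3.50 (0.0204) and EXGT-A3 by 0.73 (0.0396). In the xyloglucan family 2 of 10 platform-named members rose and 0 fell (1.23% and 0.607% of all platform-named genes rose and fell). Their median was 0.19. XTH15 is not among these 10 and is named through the study's table of higher genes, which favours rises. TCH4, the touch-induced member, differed by 2.17 without passing limma (0.161), and passed with the replicate block (0.027) and by Rank Product (proportion of false positives 0.0358). It is named through the study's table of higher genes, itself a Rank Product list from these arrays, so the Rank Product call is no separate support. GRP5, a glycine-rich wall protein, had 8.25, 8.53 and 8.70 in fdh and 3.03, 4.77 and 4.57 in WT. The proline-rich protein gene At2g16630 had 10.47, 10.37 and 10.32 in fdh and 6.97, 7.75 and 7.57 in WT, and PGIP1, whose product inhibits fungal polygalacturonases, had 7.48, 7.19 and 6.89 against 3.01, 4.34 and 4.34. These 3 rose by 4.37, 2.96 and 3.29 (limma adjusted p = 0.00326, 7.69e-04 and 0.00501).

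Pectin methylesterases strip methyl groups from pectin. Of 6 platform-named members 0 rose and 1 fell by limma (1.23% and 0.607% of all platform-named genes rose and fell). Their median was -0.057. Another 3 are named through the study's table of higher genes, and 2 of them rose. At2g26440 rose by 3.12 and PME44 by 2.07 (limma adjusted p = 0.00433 and 0.0174), both named that way, while the platform-named PME61 had 7.15, 7.17 and 7.24 in fdh against 8.75, 8.58 and 8.37 in WT and fell by 1.38 (0.0221). At1g60590, of the pectin lyase-like family, had 9.41, 9.68 and 9.80 in fdh against 10.87, 11.47 and 11.11 in WT (limma adjusted p = 0.0186). The calls of XTH15, EXGT-A3, PME44, PME61 and At1g60590 ended without fdh replicate 1 (adjusted p between 0.066 and 0.0979) and without fdh replicate 2 (0.0708 to 0.135). Those of XTH15, PME44 and PME61 ended without WT replicate 1 (0.0584 to 0.0779), those of EXGT-A3, PME44, PME61 and At1g60590 without WT replicate 2 (0.0581 to 0.107), and that of EXGT-A3 without WT replicate 3 (0.0748) and fdh replicate 3 (0.0622). Expansins, which loosen walls, gave 0 calls by limma and 1 by Rank Product among 19 members (0 at an unadjusted p under 0.05), with a median of 0.0069. Trichome birefringence-like genes (23), tetraspanins (15) and family 9 glycosyl hydrolases (15) gave 0 by both (7, 1 and 1 at an unadjusted p under 0.05), at medians between -0.0082 and 8.1e-05.

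Single genes of sugar and nitrogen supply rose. STP13 (MSS1, At5g26340), a hexose importer of the plasma membrane, had 7.93, 7.85 and 8.29 in fdh and 1.93, 2.79 and 3.06 in WT, a rise of 5.43 (limma adjusted p = 7.69e-04). QQS (At3g30720), an Arabidopsis gene that lowers leaf starch, had 9.31, 8.78 and 9.67 in fdh and 4.99, 5.5 and 5.08 in WT, a rise of 4.06 (limma adjusted p = 0.00202). Neither gene overlapped between groups, as for all 349 called rises, and QQS was above the array medians in both. SIP2, an alpha-galactosidase of raffinose, rose by 3.95, the asparagine synthetase gene ASN1 by 2.28, the senescence gene SAG13 by 3.23 and the cell wall invertase gene ATBFRUCT1 by 2.08 (limma adjusted p = 0.00399, 0.00896, 0.0201 and 0.0407). Of 12 listed sugar starvation and senescence genes QQS alone has a platform name, and 5 of 9 named through the study's table rose. Outside that list, and chosen after their values were seen, the trehalase gene TRE1 rose by 2.27, the BTB-TAZ regulator BT4 by 3.82, the amino acid importer LHT1 by 2.90 and the ATP sulfurylase gene APS4 by 1.89 (limma adjusted p between 0.00455 and 0.0095).

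Among nitrate transporters, NRT2.6 had 7.72, 8.18 and 7.19 in fdh and 3.44, 3.92 and 3.45 in WT, and WR3 (NRT3.1), a partner of high-affinity nitrate carriers, had 9.19, 9.44 and 8.38 against 6.10, 6.41 and 5.36. Both rises, of 4.10 and 3.05, held with each array left out (limma adjusted p = 0.00538 and 0.00365 with all). NRT1.8, which takes nitrate out of the xylem, rose by 4.09 (0.0299), and is named through the study's table of higher genes, which favours rises. In its family, the peptide and nitrate transporters, 11 platform-named members gave 0 calls by limma and by Rank Product (1 at an unadjusted p under 0.05). The calls of SAG13, NRT1.8 and ATBFRUCT1 ended without fdh replicate 1 (adjusted p between 0.0969 and 0.172), without WT replicate 1 (0.056 to 0.0898) and without WT replicate 2 (0.0586 to 0.0799), and those of NRT1.8 and ATBFRUCT1 also without fdh replicate 2 (0.117 and 0.135) and WT replicate 3 (0.0615 and 0.0566).

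Named dehydration genes stood higher in fdh, most of them without passing limma. LEA7 (At1g52690), a late embryogenesis abundant protein of drying tissue, had 7.65, 8.51 and 9.50 in fdh and 2.61, 3.09 and 2.73 in WT, a rise of 5.74 (limma adjusted p = 0.011). RD26, a NAC factor of dehydration, rose by 3.04 (0.0362). Its call ended with the replicate block (0.0549) and with any fdh or WT array left out (0.0614 to 0.154). Of 35 listed abscisic acid and dehydration genes 5 have a platform name. All 5 had positive differences, between 1.32 and 3.43 with a median of 2.25. By limma 0 of these 5 passed (4 at an unadjusted p under 0.05), and Rank Product called 3 of them higher. A further 8 are named through the study's table of higher genes, which favours rises, and 2 of these, LEA7 and RD26, passed limma. COR15A, a cold and drought protein of the chloroplast, read 10.98, 11.14 and 12.44 in fdh against 7.66, 8.38 and 11.78 in WT (limma adjusted p = 0.428, proportion of false positives 0.0436 by Rank Product). Its replicate 3 was the highest in both genotypes, and the groups overlapped.

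Jasmonate genes also varied between arrays. AOC3, an allene oxide cyclase of jasmonate synthesis, had 8.52, 8.25 and 7.29 in fdh and 4.59, 5.19 and 4.68 in WT, a rise of 3.20 (limma adjusted p = 0.0107). The repressors JAZ1 and JAZ7 rose by 2.75 and 1.76 (0.0422 and 0.0311). CORI3 read 10.38, 9.86 and 12.09 in fdh against 6.46, 6.73 and 11.50 in WT, again with replicate 3 high in both (limma adjusted p = 0.446, proportion of false positives 0.019 by Rank Product). CORI3 is named through the study's table of higher genes, a Rank Product list from these arrays, so its Rank Product call is no separate support. Of 30 listed genes 6 have a platform name, at a median of 1.37, and 0 of them passed limma (2 at an unadjusted p under 0.05) while Rank Product called 2 higher, and 3 of 9 named through the study's table rose. All 3 calls ended without fdh replicate 1 (adjusted p between 0.0523 and 0.175) and fdh replicate 2 (0.0512 to 0.133), those of JAZ1 and JAZ7 without WT replicate 1 (0.0879 and 0.0963) and WT replicate 2 (0.104 and 0.0753), JAZ7 without WT replicate 3 (0.065) and JAZ1 without fdh replicate 3 (0.0547).

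Several genes for defence enzymes rose. Of 17 listed salicylic acid genes SAG101 alone has a platform name, and it passed neither limma nor Rank Product. PAD3, the P450 enzyme of the last step of camalexin synthesis, had 5.87, 6.60 and 7.38 in fdh and 2.66, 3.70 and 3.54 in WT. Its rise was 3.32 (limma adjusted p = 0.0054), and it is named through the study's table of higher genes, which favours rises. Of 13 listed camalexin and indole glucosinolate genes 0 have a platform name. CYP81F2, the other one named through the study's table, differed by 2.44 and did not pass limma (0.196). The class III peroxidase gene At5g64120 had 9.70, 9.70 and 8.26 in fdh and 3.57, 5.47 and 3.56 in WT, and the chitinase gene At2g43620 had 10.69, 11.17 and 11.12 against 4.15, 6.89 and 6.65. They rose by 5.02 and 5.10 (0.00711 and 0.0174), At4g39670, of the glycolipid transfer family, by 5.03 (0.0112) and CYP71B23 by 3.24 (0.0157). PR1 read 6.41, 4.88 and 8.26 in fdh against 3.96, 4.35 and 4.67 in WT, and BGL2 (PR2), a beta-1,3-glucanase, 8.23, 7.93 and 9.0 against 3.79, 3.24 and 6.49 (limma adjusted p = 0.435 and 0.0787). EDS5, a carrier needed for salicylic acid to build up, and SAG101, of the EDS1 complex, did not pass limma either (0.146 and 0.389), though EDS5 passed with the replicate block (0.038). Rank Product placed PR1, BGL2 and EDS5 higher (proportion of false positives 0.0332, 0.001 and 0.0163) but not SAG101 (0.22). PR1, BGL2 and EDS5 are named through the study's table of higher genes. That table is itself a Rank Product list from these arrays, so their Rank Product calls are no separate support. The calls of At2g43620, At4g39670 and CYP71B23 ended without fdh replicate 1 (adjusted p between 0.0541 and 0.0728) and fdh replicate 2 (0.0526 to 0.0714), and that of CYP71B23 without WT replicate 1 (0.056). CYP71B23 was the sole call, a rise, among 23 platform-named P450 genes (1.23% and 0.607% of all platform-named genes rose and fell).

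Single genes of metal binding and detoxification rose. FER1, the iron store ferritin, had 12.54, 12.54 and 11.90 in fdh and 9.07, 9.53 and 10.16 in WT, a rise of 2.74 (limma adjusted p = 0.00326). BCB, a blue copper protein, had 12.39, 12.20 and 11.69 in fdh and 7.39, 9.06 and 7.57 in WT, a rise of 4.09 (0.00365). GSTU4, a tau-class glutathione transferase, rose by 2.99 (0.0115), and these 3 calls held with each array left out. CCS, the copper chaperone of superoxide dismutase, rose by 1.32 (0.0299), a call that ended without fdh replicate 1 (adjusted p = 0.131), fdh replicate 2 (0.116), WT replicate 2 (0.0888) and WT replicate 3 (0.0641). BGLU11, a beta-glucosidase, rose by 3.61 (0.0299), and its call ended without any array but fdh replicate 3 (0.0539 to 0.112). FER1, GSTU4 and BGLU11 are named through the study's table of higher genes, which favours rises. Among platform-named members the tau-class glutathione transferases (11), beta-glucosidases (22) and aldehyde dehydrogenases (8) gave 0 calls each by limma and by Rank Product (3, 2 and 3 at an unadjusted p under 0.05). At5g47330, for a putative palmitoyl-protein thioesterase, had 10.11, 9.66 and 10.20 in fdh and 3.42, 5.47 and 4.96 in WT, a rise of 5.37 (0.00365).

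WRKY factors, which bind the W box of defence genes, rose in several members. WRKY60 had 6.89, 6.57 and 6.16 in fdh and 3.12, 3.07 and 2.61 in WT, a rise of 3.60 (limma adjusted p = 0.00872). Its partner WRKY40 had 9.64, 9.81 and 8.46 in fdh and 4.57, 7.26 and 4.76 in WT, a rise of 3.77 (0.0457). WRKY47, WRKY28 and WRKY6 rose by 3.34, 2.77 and 1.98 (0.0167, 0.0429 and 0.027). Among 7 platform-named members 2, WRKY47 and WRKY6, rose and 0 fell, with a median of 1.98 (1.23% and 0.607% of all platform-named genes rose and fell). A further 5 are named through the study's table of higher genes, which favours rises, and 3 of them, WRKY60, WRKY40 and WRKY28, rose. The ubiquitin ligases PUB23 and PUB24, which dampen immune responses, rose by 2.90 and 1.48 (0.0417 and 0.0177), 2 of 9 named members of their family. CML37, a calmodulin-like protein, rose by 2.85 (0.0338), 1 of 8, and CML38 differed by 2.96 without passing limma (0.109), and passed Rank Product (proportion of false positives 0.00871). The call of WRKY60 held with each array left out. The calls of WRKY40, WRKY47, WRKY28, WRKY6, PUB23, PUB24 and CML37 all ended without fdh replicate 1 (adjusted p between 0.0539 and 0.183), fdh replicate 2 (0.064 to 0.164) and WT replicate 1 (0.0504 to 0.131). Those of WRKY28, PUB23 and CML37 also ended without WT replicate 2 (0.0769 to 0.118), and those of WRKY40, WRKY28, WRKY6, PUB23 and CML37 without WT replicate 3 (0.051 to 0.0983). On the fdh arrays replicate 3 was the lowest for each of these 8 called genes.

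GH3 enzymes join auxin to amino acids, which inactivates it, and 3 of their genes, chosen after their values were seen, passed limma. WES1 (GH3.5) had 7.61, 7.01 and 6.56 in fdh and 2.41, 2.44 and 2.43 in WT, a rise of 4.63 (limma adjusted p = 0.00664). GH3.3 had 7.61, 7.57 and 6.5 in fdh against 2.76, 3.57 and 4.41 in WT, and DFL1 (GH3.6) 7.21, 5.56 and 6.57 against 3.70, 3.53 and 3.23 (0.0325 and 0.0172). YUC2, an enzyme of auxin synthesis, had 2.46, 2.30 and 2.33 in fdh and 3.09, 3.05 and 3.17 in WT (0.00365), all under the lowest array median. Among 7 Aux/IAA repressors limma gave 0 calls and Rank Product 1, that of IAA29, at a difference of 2.82 (limma adjusted p = 0.162, proportion of false positives 0.0104). GA2OX6, which inactivates gibberellin, rose by 3.71 (0.00524). The call of GH3.3 ended without fdh replicates 1 and 2 (adjusted p = 0.138 and 0.122) and WT replicates 1 and 2 (0.0992 and 0.085), and that of DFL1 without fdh replicate 1 (0.0623) and WT replicates 1 and 2 (0.0514 and 0.0508).

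Falls named genes of cytokinin response and of the cell cycle. ARR15 and RR16 (ARR16) are type-A response regulators, which cytokinin induces and which damp its signal. ARR15 had 3.73, 3.86 and 4.82 in fdh and 6.99, 6.05 and 6.40 in WT, and RR16 had 6.22, 5.95 and 6.42 against 7.92, 8.97 and 7.43. They fell by 2.34 and 1.91 (limma adjusted p = 0.0206 and 0.0435), 2 of 6 platform-named response regulators (0.607% of all platform-named genes fell). The call of RR16 ended with the replicate block (0.0536). The kinase gene AUR1, which acts in mitosis, had 4.40, 4.54 and 4.14 in fdh and 5.63, 5.61 and 5.21 in WT, and POLA3, a primase subunit of DNA replication, had 5.58, 5.66 and 6.03 against 6.55, 6.93 and 6.99. They fell by 1.12 and 1.07 (0.0399 and 0.0317), 2 of 21 named members with 0 rises and a median of -0.012. PRL (MCM7), of the replicative helicase, and AUR2 had no overlap either but did not pass, at -1.46 and -1.61 (0.0536 and 0.103). Both passed with the replicate block (0.011 and 0.0469).

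At4g15830 fell by 1.81 (limma adjusted p = 0.0174). The calls of ARR15, RR16, AUR1, POLA3 and At4g15830 all ended without fdh replicate 1 (adjusted p between 0.0797 and 0.156) and fdh replicate 2 (0.0684 to 0.158). Those of ARR15, RR16, AUR1 and At4g15830 ended without WT replicate 1 (0.0649 to 0.118), those of RR16, AUR1 and POLA3 without WT replicate 2 (0.0769 to 0.114), that of POLA3 without WT replicate 3 (0.0714), and those of RR16 and AUR1 without fdh replicate 3 (0.0534 and 0.071).

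Regulators of trichomes were among the falls as well. ATMYC1, a bHLH protein of trichome formation, had 4.74, 4.82 and 4.66 in fdh and 6.25, 6.17 and 6.14 in WT. This fall of 1.44 (standard error 0.0793, limma adjusted p = 3.54e-04) held with each array left out. GIS, a zinc finger protein that promotes trichomes, had 5.2, 5.05 and 4.26 in fdh and 8.10, 7.10 and 6.53 in WT and fell by 2.41 (0.0399). TRY, an inhibitor of trichome fate, read 6.84, 7.11 and 6.61 in fdh against 9.25, 9.01 and 7.65 in WT, with no overlap and no limma call (0.129), but it passed with the replicate block (0.0205) and by Rank Product (proportion of false positives 0.0417). Among stomatal genes of the same list, SPCH (-0.63, limma adjusted p = 0.0546) and STOMAGEN (-0.85, 0.13) did not pass, though STOMAGEN did with the replicate block (0.0354). Nor did MUTE (-0.29, 0.851) pass, or FMA, which differed by 0.13 in the other direction. In all 2 of 7 named members fell and 0 rose, with a median of -0.85 (0.607% and 1.23% of all platform-named genes fell and rose). The call of GIS ended without any fdh array (adjusted p between 0.0698 and 0.116) and without WT replicates 1 and 2 (0.103 and 0.0937).

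The largest named fall was that of At4g02850, of the phenazine biosynthesis-like family, with 4.76, 4.12 and 5.47 in fdh and 8.12, 7.76 and 8.47 in WT, a difference of -3.33 (limma adjusted p = 0.00365). ATLP-1, a thaumatin-like protein gene, had 5.07, 5.39 and 5.30 in fdh against 7.44, 6.98 and 6.73 in WT and fell by 1.80 (0.00524). Both held with each array left out. Several enzyme genes were among the other large falls: At3g55710, of the glycosyltransferase family, fell by 2.57, the hydrolase gene At1g80280 by 2.54, the amine oxidase gene At1g31690 by 2.07 and the methyltransferase gene At3g21950 by 1.93 (limma adjusted p between 0.0186 and 0.0356). UGT78D1, a flavonol rhamnosyltransferase, had 10.00, 9.96 and 9.86 in fdh and 11.39, 10.94 and 11.02 in WT and fell by 1.18 (0.0158), while UGT73B1 rose by 0.78 (0.0458, and 0.0564 with the replicate block). These were the 2 calls among 51 glycosyltransferase genes named by symbol (1.23% and 0.607% of all platform-named genes rose and fell). The median of the 51 was 0.0059. At1g72030 fell by 1.64 (0.0465, and 0.0641 with the block) and At3g52110 by 1.60 (0.0429). The calls of these 8 genes other than At4g02850 and ATLP-1 ended without fdh replicate 1 (adjusted p between 0.0601 and 0.181), fdh replicate 2 (0.0615 to 0.141) and WT replicate 1 (0.0504 to 0.113), and, except for UGT78D1, without WT replicate 2 (0.0614 to 0.118). Those of At3g55710, At1g72030, At3g52110 and UGT73B1 ended without fdh replicate 3 (0.0574 to 0.0756), and that of At1g31690 without WT replicate 3 (0.0781).

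Nuclear genes of light harvesting and the photosystems (8 named) had a median of 0.057, with 0 calls by limma and by Rank Product (1 at an unadjusted p under 0.05). The 69 named genes of the organelle genomes, all of the chloroplast, had a median difference of -0.41, and 61 were negative. Limma and Rank Product gave 0 calls among them (1 at an unadjusted p under 0.05). Their median level was 10.95, 11.26 and 11.82 on the fdh arrays, against 11.25, 12.49 and 12.18 on the WT arrays, so the groups overlapped, and WT replicate 2, which had the highest actin 3' to 5' difference, was also the highest here. The part of RNA quality in this difference was not tested. HCF101 and LYC, nuclear genes for an iron-sulfur scaffold of photosystem I and for lycopene cyclase, fell by 0.65 each (limma adjusted p = 0.0223 and 0.0407). Both calls ended without fdh replicates 1 and 2 (adjusted p between 0.0704 and 0.105) and WT replicates 1 and 2 (0.0705 to 0.0959), and that of LYC without fdh replicate 3 (0.0591). AGAMOUS-like (42), SWEET (16), RALF (11), glutamate receptor (8) and CLE (6) genes also gave 0 calls by both (2, 1, 0, 1 and 0 at an unadjusted p under 0.05), with medians between -0.013 and 0.0014.

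The fdh arrays were also set directly against those of the other cuticle mutants. Of the 349 probe sets higher in fdh than in WT, limma also placed 98 apart from bdg and 10 apart from lcr, and of the 144 lower ones 37 and 6. Over all probe sets it separated 0.761% between fdh and bdg and 0.0879% between fdh and lcr. These comparisons share the fdh arrays with the comparison to WT, so the counts are not independent of it. QQS averaged 9.25 in fdh, 3.72 in bdg, 5.25 in lcr and 5.19 in WT. ATMYC1 averaged 4.74 in fdh, against 6.17 in bdg, 6.28 in lcr and 6.18 in WT, and PAD3 averaged 6.62 against 3.34, 3.63 and 3.3 in bdg, lcr and WT. For QQS, ATMYC1 and PAD3, as for ATLP-1 and APS4, fdh stood apart from each of the other genotypes by limma. The 8 genes plotted over the 4 genotypes were taken from those that differed by limma between fdh and bdg or lcr. Their separation therefore follows in part from that choice. In the plot the fdh points of AUR1 overlap lcr, and those of every other gene shown overlap no other genotype. STP13 averaged 8.02 in fdh, 5.42 in bdg and 6.45 in lcr, all above its 2.59 in WT. At4g02850 was lower in fdh (4.78) than in bdg (7.33), with lcr at 6.75 and WT at 8.11.

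**Figure D5:**
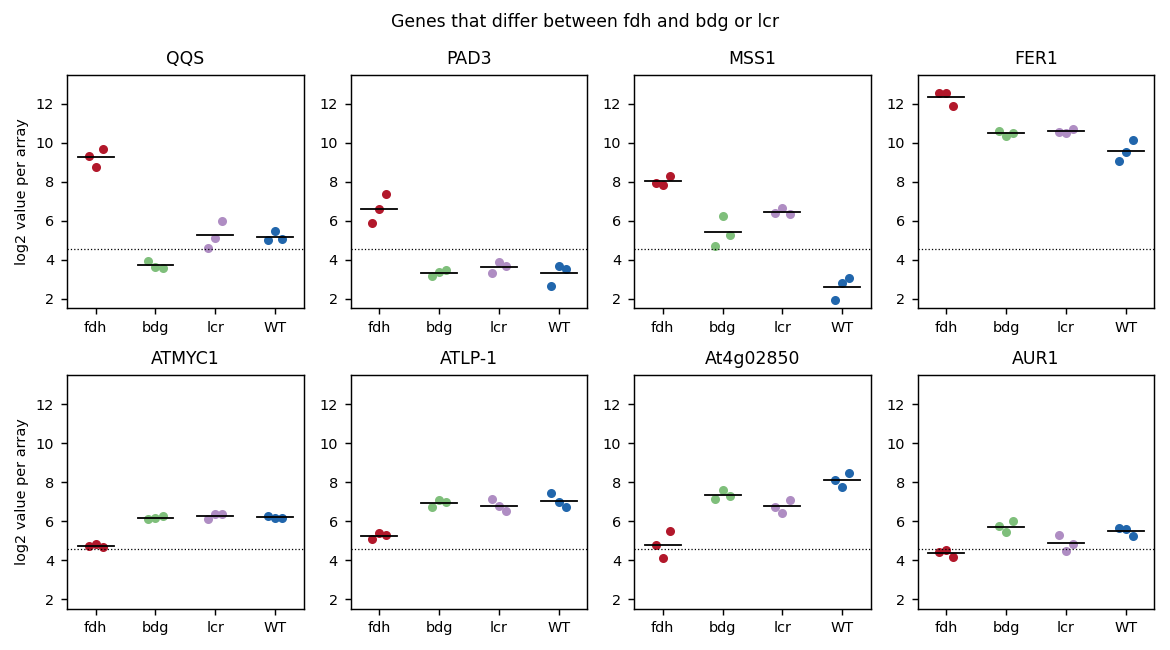
Log2 values per array (vertical axis) of 8 genes in fdh, bdg, lcr and WT (3 points each, bars are means, the dotted line is the lowest array median, 4.56). The genes were chosen because they differed by limma between fdh and bdg or lcr. The fdh points overlap those of lcr for AUR1 and overlap no other genotype for the other genes. STP13 (MSS1) is lowest in WT.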

How the data were processed

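RNA of young rosette leaves was hybridized to Affymetrix ATH1 arrays, 3 biological replicates each of fdh, WT, bdg and lcr. The values deposited by the authors are log2 per probe set and array, made with GCRMA according to the submitters' processing notes, with no version stated there. Their Rank Product lists were not used as values.

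Groups were compared with limma 3.58.1 in R 4.3.3 on all 12 arrays in a model of group means, without a replicate block and with no filter, at a Benjamini-Hochberg adjusted p under 0.05 over 22746 probe sets. Rank Product was written anew (100 permutations, proportion of false positives under 0.05). Both were run on simulated data with independent noise on each array. Such data lack deviations shared between arrays, so the run does not show how either test behaves with them. The p-values measure the spread between these samples. Each round of harvest held 1 sample of every genotype, but the labels do not tie the replicate numbers to rounds. Deviations of same-numbered fdh and WT arrays from their group means correlated at 0.28, 0.14 and 0.48. The numbers were taken to pair them in the fits with a block, and not in the main fit. Some arrays of different number correlated as much (fdh 2 with WT 1 at 0.26), and same-numbered WT and bdg arrays correlated at -0.22, -0.36 and 0.73, so the pairing does not extend to all genotypes in the blocked fit. Its values are given where a call of a described gene changes.

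The precision is limited by the number of arrays. The platform annotation, updated through RefSeq (TAIR10.1), named 1 gene for 13513 probe sets, and 503 with several genes were not named. Another 235 were named through the study's list of higher genes, whose gene and probe versions share printed columns that served only as a key, and this favours genes that rose. List counts therefore use platform names, and the shares to set them against are 1.23% higher and 0.607% lower over all platform-named genes. A gene with several probe sets is represented by the one with the highest mean over fdh and WT.

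The members, lists and tests were chosen with earlier results of these data known. Genes named were the 12 largest called rises and 12 largest called falls without overlap between groups and with the higher mean over the lowest array median, up to 4 members per list or family, and all called genes of the wax, cutin and lipid transfer lists. Another 25 were chosen after their values were seen: NRT2.6, WR3, LHT1, APS4, TRE1, BT4, WES1, GH3.3, DFL1, GA2OX6, YUC2, BCB, GRP5, At2g16630, PGIP1, formate dehydrogenase, At1g60590, HCF101, LYC, PRL, AUR2, SPCH, ASN1, ATBFRUCT1 and WRKY6. Alternatives were the replicate block, only the fdh and WT arrays, both of these together, a second quantile normalization, a filter that kept log2 values over 5 on at least 3 arrays, a trend and robust variance, array weights, the actin 3' to 5' covariate, a 2-fold limit, a stricter threshold for Rank Product, and each array left out.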

Additional observations from a re-analysis of the deposited data

Results flagged for a closer look

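The genes below passed limma between fdh and WT and also differed by limma between fdh and another mutant, which flagged them; values are log2 differences with adjusted p. Each comparison was repeated without each of its 6 arrays. Against both mutants, QQS was higher in fdh by 5.53 than in bdg and by 4.0 than in lcr (8.60e-04 and 0.00587), and ATMYC1 was lower, at -1.43 and -1.54 (5.41e-04 and 2.84e-04). These 4 calls held with each array left out (highest adjusted p 0.0432).

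PAD3 was higher in fdh by 3.28 than in bdg and by 2.99 than in lcr (0.0166 and 0.0413), APS4 by 2.00 and 2.18 (0.0166 and 0.0195), and ATLP-1 was lower, at -1.67 and -1.54 (0.017 and 0.0451). Of these 6 calls, APS4 against bdg held in 4 of 6 fits, PAD3 against bdg, ATLP-1 against bdg and APS4 against lcr in 3, PAD3 against lcr in 2 and ATLP-1 against lcr in 1, with adjusted p of up to 0.172.

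Against bdg alone, STP13 (MSS1) differed by 2.6 (adjusted p = 0.0294), WES1 by 4.58 (0.0166), FER1 by 1.83 (0.0268), At2g26440 by 2.19 (0.0299), GSTU4 by 2.50 (0.0391) and PUB24 by 1.66 (0.0239). Lower in fdh than in bdg were At4g02850 at -2.54 (0.0211), At4g15830 at -2.03 (0.0237), AUR1 at -1.35 (0.0369) and HCF101 at -0.72 (0.0294). Each of these 10 calls held in 1 or 2 of the 6 fits with an array left out, with adjusted p of up to 0.147 in the rest. The difference of ASN1, fdh minus bdg, was 2.85 (0.00961), and this call held with each array left out (highest adjusted p 0.0382).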

How the results depend on the processing

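All 88 genes described with a call kept the direction of their difference under each of 14 alternatives, except that the filter on low values left 5 of them without a value. In the alternatives that fit all 4 genotypes 38 of the 88 also kept the call wherever they had a value, the replicate block ended 4 (RR16, At1g72030, RD26 and UGT73B1) and gave a call to 6 without one (EDS5, STOMAGEN, TRY, TCH4, PRL and AUR2), and with only the fdh and WT arrays 17 kept it. Counts of higher and lower probe sets by limma were 349 and 144. They were 583 and 264 with the replicate block, 42 and 11 with only the fdh and WT arrays, 0 and 0 with both of these together (an alternative chosen after seeing the data, with few residual degrees of freedom), 1109 and 800 with array weights, 641 and 346 with the actin covariate, 81 lower with a trend and robust variance, and 68 lower with the 2-fold limit. Leaving out a single array gave 104 to 599 higher and 17 to 255 lower. Rank Product gave 383 and 46, and 165 and 18 at a proportion of false positives under 0.01, 245 higher with the filter, and 61 to 343 higher and 4 to 43 lower without a single array. Fewer arrays weaken a test by themselves. Without WT replicate 1 or 2 Rank Product called 4 or 5 lower; the cause was not tested. The filter on low values gave 517 and 152 by limma, and the second quantile normalization 283 and 154.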
